A study of Mus musculus with 2 samples.

Results

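Mir320 and Mir484, which are made from capped short hairpins, and Mir877, Mir1224 and Mir702, which are mirtrons, were followed in small RNA from the lungs of mouse embryos. The 5 genes were chosen by name, as examples of microRNAs that reach Dicer without the Drosha step, with earlier results of these data known. They were taken from 1973 microRNA genes in the deposited tables. All 5 were in the tables. The study holds 1 group, whole lung of B6NCrl embryos at embryonic day 15.5, of mixed sex and labelled healthy, with no treatment, mutation or other group to set it against. Replicate 1 pooled lungs of 78 embryos and replicate 2 pooled lungs of 62 embryos, and each pool was sequenced once. The labels number the pools as biological replicates but list 1 donor for both, and whether the pools share litters is not given, so SDs measure only the spread between these 2 libraries.

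Most microRNAs are cut out of a long primary transcript by the nuclear enzyme Drosha with its partner DGCR8, and the freed hairpin is then cut by Dicer in the cytoplasm. Capped short hairpins skip the first cut because transcription starts and stops at the ends of the hairpin itself, so that the 5′ end carries a cap. Mirtrons skip it because the hairpin is a short intron, which splicing and debranching release. The products of both routes are loaded into Argonaute proteins like other microRNAs. They are recognised in mouse cells by persisting when Drosha or DGCR8 is lost and disappearing when Dicer is lost. None of these enzymes was altered here, so the class names come from that background and were not tested in these libraries.

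The sequences and positions of the members are given here by class, without a test of what separates the classes. Of the 5 members, 4 were in the RefSeq microRNA table (GRCm38.p6, the assembly that mm10 denotes), and Mir320 was named only. The hairpins of the mirtrons are given first, 5′ to 3′, with the first 2 and the last 2 bases of the host intron in capitals wherever they lie inside the hairpin. Mir877 lies at chr17:35960730-35960814 on the minus strand, Mir1224 at chr16:20604452-20604536 on the plus strand and Mir702 at chr5:136991433-136991541 on the plus strand.
Mir877: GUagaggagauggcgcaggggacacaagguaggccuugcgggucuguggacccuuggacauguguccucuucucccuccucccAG
Mir1224: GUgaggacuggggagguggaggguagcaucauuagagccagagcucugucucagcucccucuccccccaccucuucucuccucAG
Mir702: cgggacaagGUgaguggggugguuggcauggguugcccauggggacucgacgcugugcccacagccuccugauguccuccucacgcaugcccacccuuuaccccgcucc

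Mir877 filled intron 12 of 22 in Abcf1-201, a transcript of an ATP-binding cassette protein that acts in translation, and both ends of the precursor coincided with the ends of the 85 nt intron. Mir1224 filled intron 22 of 22 in Vwa5b2-202 in the same way, also 85 nt long. Mir702 was annotated less neatly on intron 13 of 18 in Plod3-201, which encodes a lysyl hydroxylase of collagen. Its precursor began 9 nt inside the upstream exon and ended 2 nt before the end of the 102 nt intron. Hairpins that begin with GU and end with AG, the bases at the ends of most introns (read on the strand given, as whole-hairpin ends), made up 2.99% of the 1005 hairpins in the table (30 hairpins), among them Mir877 and Mir1224. The last 20 bases of the 3 hairpins were rich in C and U, with 90% in Mir877, 85% in Mir1224 and 85% in Mir702, against a median of 55% over all hairpins.

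The mature products are printed next, with the seed, bases 2 to 8, in capitals, because these are the bases that pair with targets.
mmu-miR-484: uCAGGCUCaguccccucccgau
mmu-miR-877-5p: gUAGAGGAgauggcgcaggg
mmu-miR-877-3p: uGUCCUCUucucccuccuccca
mmu-miR-1224-5p: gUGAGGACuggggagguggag
mmu-miR-1224-3p: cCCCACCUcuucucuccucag
mmu-miR-702-5p: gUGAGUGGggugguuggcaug
mmu-miR-702-3p: uGCCCACCcuuuaccccgcucc
mmu-miR-3102-5p: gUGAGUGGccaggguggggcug

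In each of the 3 mirtrons the 5p product began on the first base of the intron, so its seed started with the U of the splice donor. The 3p product ended on the last intron base in Mir1224, 1 nt before it in Mir877 and 2 nt before it in Mir702. Products that begin with GUGAG, a common form of the splice donor (searched at the 5′ end of mature products only), were 14 of 1738 in the table, or 0.806%. The 5p products of Mir1224 and Mir702 were among them. Among the 4 members with sequence, no seed was shared. Of the 7 products of the members, mmu-miR-702-5p alone shared its seed with another mature microRNA in the table, mmu-miR-3102-5p, which is shown for that reason and comes from an intron of Arhgef17 (chr7:100882388-100882409, minus strand).

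Both capped hairpins lie close to the starts of protein-coding genes on the opposite strand. That distance was not measured for other precursors. Mir320 (chr14:70443510-70443591, plus strand) starts 63 nt upstream of Polr3d-201, a transcript of a subunit of RNA polymerase III that is read the other way, and overlapped no exon of that gene. Mir484 (chr16:14159626-14159692, plus strand) starts 359 nt upstream of Marf1-201, on the minus strand, and overlapped 19 nt of an untranslated exon of Marf1-202 on that strand. The nearest gene start on its own strand was that of Nde1, 3583 nt downstream of the hairpin. Neither precursor lay inside an annotated intron on its own strand. The hairpin of Mir484 follows with its mature product in capitals, which starts at base 5 of the hairpin.
Mir484: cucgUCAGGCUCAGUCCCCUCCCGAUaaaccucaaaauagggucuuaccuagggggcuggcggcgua

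At 67 nt Mir484 was the shortest of the 4 hairpins, against a median of 79 nt over all hairpins and 109 nt in Mir702. All 4 were richer in G and C than the median hairpin (51.7%), at 58.2% in Mir484, 60.0% in Mir1224, 61.2% in Mir877 and 65.1% in Mir702. In the fold predicted by RNAfold, 53.7% of the bases of Mir484 were paired, and 1.89% of hairpins had a smaller paired share. The mirtrons were below the median of 69.0%, with 65.9% in Mir877, 66.1% in Mir702 and 68.2% in Mir1224. These are predictions from the annotated ends, with no test, and the plot of composition against predicted pairing shows where the 4 hairpins fall.

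**Figure D1:**
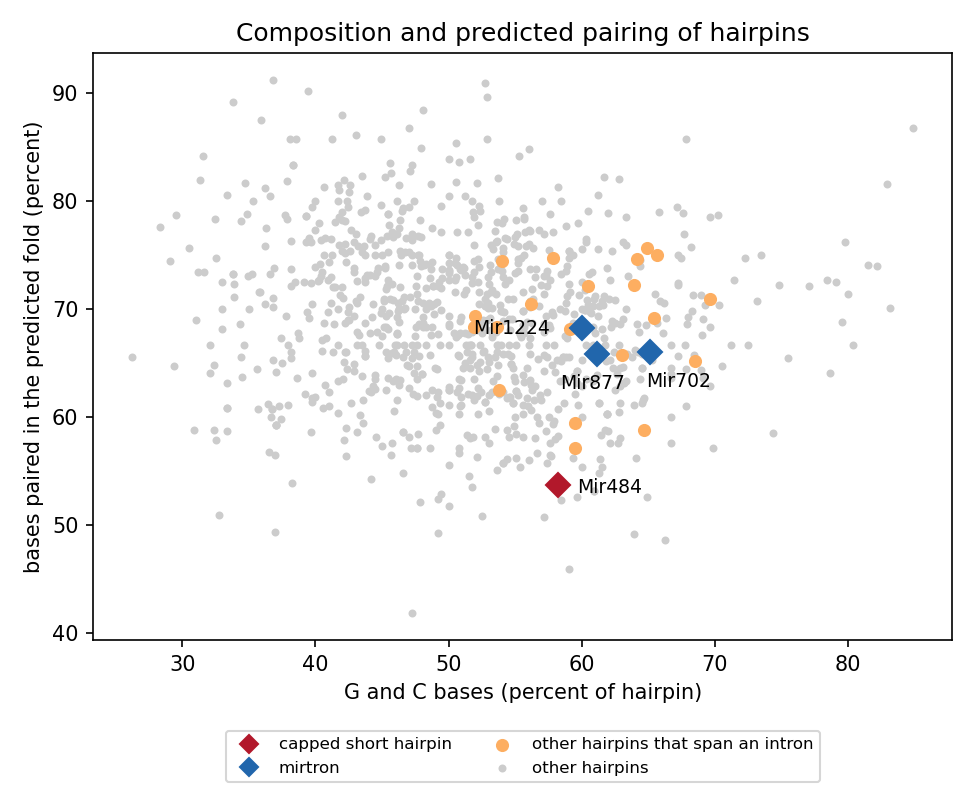
Each point is 1 of 1005 hairpins, with the share of G and C bases on the x axis and the share of bases paired in the predicted fold on the y axis, both in percent. Mir484 (red diamond) sits at 58.2% G and C and 53.7% paired, with 1.89% of hairpins lower, and the mirtrons (blue diamonds) sit to the right of the median of 51.7% G and C.

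Reads counted on the annotated strand of microRNA genes came to 5354530 in replicate 1 and 6489390 in replicate 2, and levels are given as CPM, counts per 1000000 of these. A floor of 3 counts equalled 0.560 CPM in replicate 1 and 0.462 CPM in replicate 2. Without molecular identifiers, reads are not independent molecules, so intervals and floors reflect counting error alone. Among markers of lung compartments, the 5 epithelial genes of the miR-200 family took 3.15% to 3.19% of counts. The endothelial Mir126a took 6.70% to 6.89%. The smooth muscle genes Mir143 and Mir145a took 7.76% to 8.31%, mostly through Mir143 (mean 79294 CPM, against 1062 CPM for Mir145a). The neuroendocrine Mir375 took 0.423% to 0.493%. Markers of other tissues were low and partly uneven between replicates 1 and 2. The liver marker Mir122 took 0.0470% and 0.0278%, and the striated muscle list 0.0928% and 0.124%. The neural list took 0.0166% and 0.0108%, with Mir124a-1 and Mir9-2 at 0 counts. Those 2 genes are numbered copies, whose reads can map to several places and then go uncounted. Their 0 counts, and the low share of the neural list, are therefore uncertain. The erythroid list took 0.0684% and 0.0833%, and the leukocyte marker Mir223 0.0685% and 0.0648%. In whole tissue, fewer cells of a type and less RNA per cell cannot be told apart.

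Mean levels ran from 2103 CPM in Mir484 down to 22.3 CPM in Mir702 and 0.852 CPM in Mir1224, with the capped hairpins on top. The value of Mir1224 rests on 5 counts per library. A gene was called detected where each library held 10 or more counts, and 4 of the 5 members were, against 18.1% of all genes in the table. Of the 1973 genes, 1261 had 0 counts in both libraries. Because the 5 members were named with earlier results of these data known, this contrast says nothing about their classes. Together the 5 members took 0.271% ± 0.00199 of the counts (SD, n = 2). Mir484 alone made up 77.5% ± 0.808 of their counts (SD, n = 2).

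Mir484 (ENSMUSG00000070074.1) had 11118 counts in replicate 1 and 13817 in replicate 2, which equalled 2076 and 2129 CPM. Its mean of 2103 ± 37.3 CPM (SD, n = 2) placed it 67th of all genes. Ranks here and below leave out reads that map to several places, so genes with numbered copies may rank too low. Mir320 (ENSMUSG00000065528.1) had 2931 and 3442 counts, or 547 and 530 CPM. Its mean of 539 ± 12.0 CPM (SD, n = 2) placed it 115th. Mir484 thus exceeded Mir320 in both libraries, by 3.79-fold in replicate 1 and 4.01-fold in replicate 2 (log2 1.96 ± 0.06, SD, n = 2). No library of Mir484 overlapped one of Mir320.

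Mir877 (ENSMUSG00000077931.1) had 276 and 275 counts, or 51.5 and 42.4 CPM, and its mean of 47.0 ± 6.48 CPM (SD, n = 2) placed it 222nd. Mir702 (ENSMUSG00000076240.1) had 115 and 150 counts, or 21.5 and 23.1 CPM, with a mean of 22.3 ± 1.16 CPM (SD, n = 2) and rank 251. Mir877 was above Mir702 in both libraries, by 2.40-fold and 1.83-fold (log2 1.07 ± 0.27, SD, n = 2). Mir1224 (ENSMUSG00000080669.1) was near the floor. It had 5 counts in each library, or 0.934 CPM (95% exact Poisson interval 0.303 to 2.18) in replicate 1 and 0.770 CPM (0.250 to 1.80) in replicate 2. The floor lies within both intervals, so its level could not be told from that of 3 counts.

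**Figure D2:**
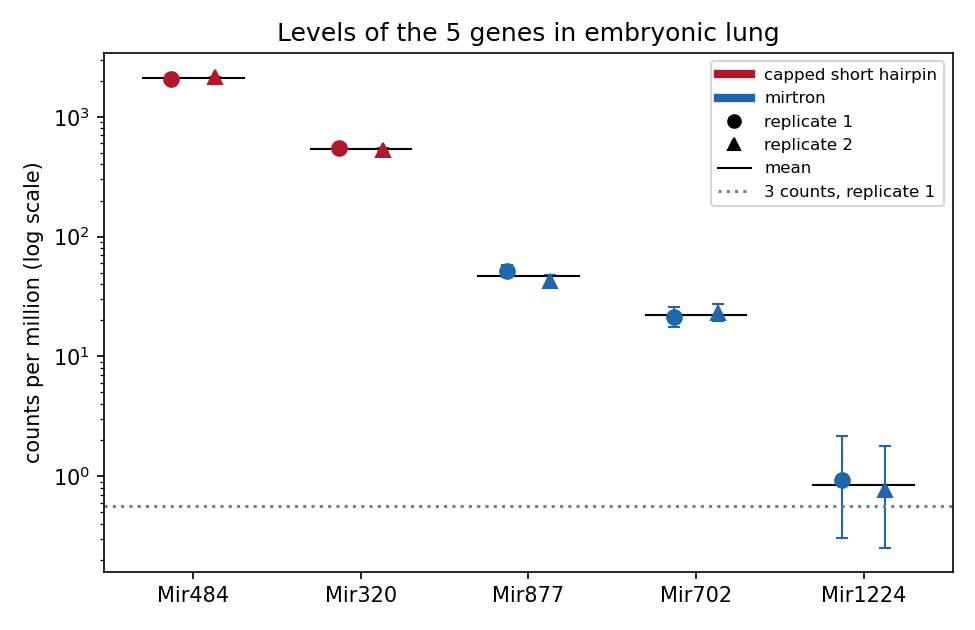
Level of each gene in CPM on a log scale, with replicate 1 as circles, replicate 2 as triangles, the mean as a line and 95% exact Poisson intervals as bars. The order runs from Mir484 at 2103 CPM through Mir320, Mir877 and Mir702 to Mir1224, whose bars cross the dotted line at 0.560 CPM.

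No neighbours in this order overlapped between the replicates. The steps were 11.5-fold from Mir320 to Mir877 (log2 3.53 ± 0.17) and 26.3-fold from Mir702 to Mir1224 (log2 4.72 ± 0.27, SD, n = 2 for each). The step down to Mir1224 rests on its 5 counts per library.

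Taken as classes, the capped hairpins held 0.264% ± 0.00253 of the counts and the mirtrons 0.00701% ± 0.000544 (SD, n = 2). The ratio was 35.5-fold in replicate 1 and 40.1-fold in replicate 2 (log2 5.24 ± 0.13, SD, n = 2). An exact 2-sided permutation test over the 4 class shares gave p = 0.333, the smallest this test can give, so it could not reach 0.05. It does not use the fact that both classes were read in the same libraries, and the capped hairpins were higher in 2 of 2 libraries. The size of the ratio rests on single genes. Without Mir484 it was log2 2.94, and without Mir877, the highest mirtron, log2 6.84. Mir877 made up 69.7% of the mirtron counts in replicate 1 and 64.0% in replicate 2.

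Across the 357 detected genes the median gene differed by 1.10-fold between the pools, and 9.8% differed by more than 1.5-fold. Of the 4 detected members 0 did, which with 4 genes does not set them apart from that share. The log2 ratio of replicate 2 over replicate 1 was 0.04 for Mir484 (95% exact binomial interval 9.39e-05 to 0.07) and -0.05 for Mir320 (-0.12 to 0.03). It was 0.11 for Mir702 (-0.25 to 0.47) and -0.28 for Mir877 (-0.53 to -0.04). The intervals of Mir484 and Mir877 left out 0, but they cover counting error alone. For Mir484, 85.4% of detected genes differed more between the pools, and for Mir877, the least even of the 4, 23.5% did. With the same 5 counts in each library, the interval for Mir1224 ran from -2.40 to 1.84.

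**Figure D3:**
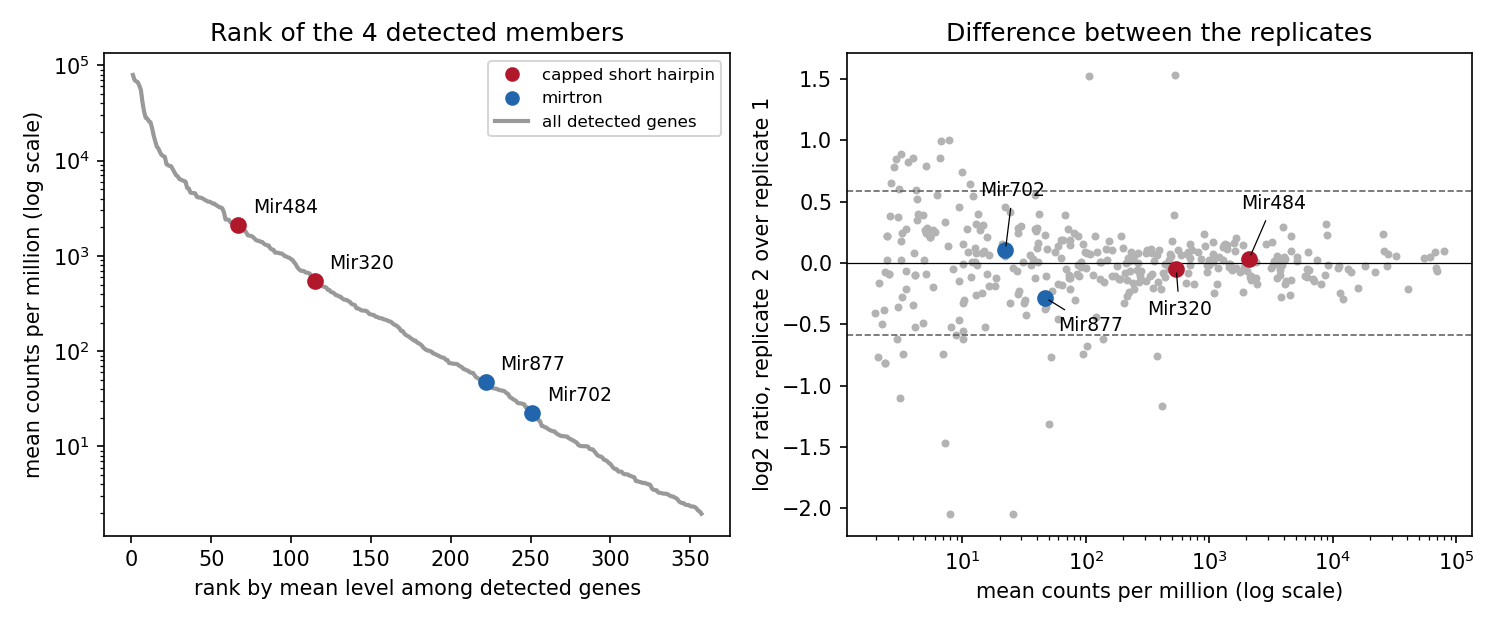
The left panel gives mean CPM (log scale) against rank for the 357 detected genes, with the capped hairpins in red and the mirtrons in blue. The right panel gives the log2 ratio of replicate 2 over replicate 1 against mean CPM, with dashed lines at 1.5-fold, and the 4 members lie between the lines.

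All reads counted for the 5 members lay on the annotated strand, with 0 on the opposite strand in both libraries. This includes the 19 nt where Mir484 overlaps an exon of Marf1-202. Over all genes, 2.91% and 2.88% of reads counted without regard to strand lay on the opposite one. In the RefSeq hairpins, the longest stretch shared with any other hairpin was 11 nt for Mir484, 11 nt for Mir877, 12 nt for Mir1224 and 13 nt for Mir702, all shorter than a mature product. This comparison covers neither Mir320, which had no sequence, nor the rest of the genome. Reads that mapped to several places, 31.4% and 30.6% of all reads, were kept apart from the gene counts.

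The genes nearest in mean level, taken over the 2 libraries, were named as the next 2 above and below each detected member. For Mir484 these were Mir16-1 (2165 ± 112 CPM), Mir324 (2135 ± 121 CPM), Mir92b (2008 ± 65.2 CPM) and Mir181a-1 (1896 ± 27.8 CPM). Mir484 was below the first pair in replicate 1 and above it in replicate 2, so that order did not hold between the pools. For Mir320 they were Mir34c (589 ± 18.7 CPM), of multiciliated cells, Mir148a (555 ± 29.1 CPM), the cardiac Mir208b (524 ± 361 CPM) and the erythroid Mir451a (515 ± 98.6 CPM). Mir208b and Mir451a were uneven between the pools, at 269 and 780 CPM for Mir208b and 445 and 585 CPM for Mir451a, against 547 and 530 CPM for Mir320.

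Around Mir877 lay Mir29c (47.6 ± 2.39 CPM), Mir138-1 (47.4 ± 8.22 CPM), Mir668 (46.8 ± 8.50 CPM) and Mir26a-2 (46.3 ± 5.20 CPM). Around Mir702 lay Mir219a-1 (24.4 ± 4.93 CPM), Mir34b (24.3 ± 3.89 CPM), Mir486 (22.1 ± 0.590 CPM) and Mir466n (22.0 ± 4.91 CPM, SD, n = 2 for all neighbours). The ranges of all 8 overlapped that of their member. Levels of genes with numbered copies, such as Mir16-1 and Mir26a-2, may be undercounted because their reads can map to several places.

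Other precursors of the tables have the form of a mirtron by annotation. Mir877 and Mir702 ranked among the higher of them, whereas Mir1224 was among those not detected. A precursor was said to span an intron when both its ends lay within 10 nt of the ends of 1 annotated intron on its strand. There were 29 such precursors in 29 host genes, in introns of 67 to 137 nt with a median of 85 nt, and for 22 of them both ends matched exactly. In 18 of the 25 with listed mature products, the first product began on the first intron base. The 3 mirtron members held 28.5% of the counts of the 29 in replicate 1 and 26.4% in replicate 2.

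Of the 29, 6 were detected (20.7%), close to the 18.1% of all genes and to the 22.4% of the 809 other precursors that lie inside an intron. The highest was Mir3102, in intron 8 of Arhgef17-201, with 512 and 661 counts (98.7 ± 4.41 CPM, SD, n = 2). It was 4.43-fold above Mir702 (log2 2.15 ± 0.01, SD, n = 2), the member with which it shares the seed UGAGUGG. The arms were not counted apart, so the level of that seed is not known. Mir1981, in intron 5 of Marc2-201, followed with 366 and 392 counts (64.4 ± 5.62 CPM, SD, n = 2). Both were above Mir877, number 3 of the 29, in each library.

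Mir702 was number 4. Below it came Mir6944, in an intron of the actin-binding drebrin gene Dbn1, with 68 and 83 counts (12.7 ± 0.0641 CPM), and Mir3062, in an intron of the purine synthesis gene Pfas, with 12 and 19 counts (2.58 ± 0.486 CPM, SD, n = 2). Mir1224 was number 10. In all, 14 of the 29 had a count in either library without being detected and 9 had none. As a list the 29 took 0.0255% ± 0.000641 of the counts. None had a mean above 100 CPM, whereas 94 of the 809 other intronic precursors and 187 of all 1973 genes did. The cut of 100 CPM lies just above the highest of the 29, Mir3102, at a mean of 98.7 CPM and at 102 CPM in replicate 2. This contrast, given with no test, depends on that cut and on the tolerance of 10 nt. At 20 nt the list held Mirlet7i at 61355 CPM and took 6.16% ± 0.140 of the counts (SD, n = 2). The 85 nt hairpin of Mirlet7i does not fill its 116 nt intron, and its farther end lies 20 nt from the intron end.

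**Figure D4:**
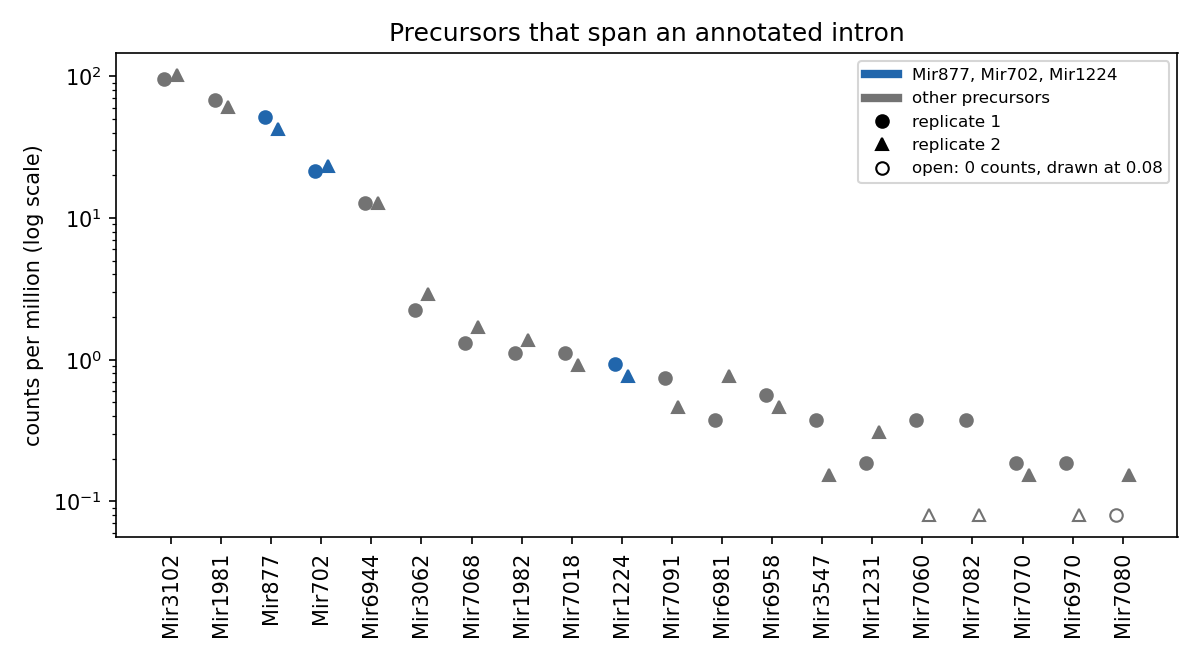
CPM (log scale) of the 20 precursors that span an intron and had a count in either library, in order of mean level, with replicate 1 as circles and replicate 2 as triangles. Mir877 and Mir702 (blue) follow Mir3102 and Mir1981, Mir1224 is number 10, and open symbols mark 0 counts, drawn at 0.08.

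MicroRNAs known from other unusual routes were looked up by name, and 2 of the 16 in the tables were detected, against 18.1% of all genes. The genes of the Mir344 family, listed as further capped hairpins, were 13 in the tables, of which 0 were detected. Their summed counts were 12 and 22, the highest single value was 10 counts (Mir344g in replicate 2), and 6 genes had no count. Reads of near-identical copies in this family may map to several places, so these low counts are uncertain. Mir1982, a mirtron of Oaz1, had 6 and 9 counts, close to the 5 and 5 of Mir1224. Mir451a, which needs Drosha but not Dicer and so inverts the rule of the members, reached 515 ± 98.6 CPM (SD, n = 2), below Mir320 in replicate 1 and above it in replicate 2. The snoRNA-derived Mir1839 and Mir664 were not in the tables and were not analysed here.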

How the data were processed

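The authors' deposited files hold raw counts of reads for each microRNA gene, with 1 table per library, on mm10 with annotation M4 per the readme files. No aligner, counter or trimming step is named in the labels or readmes. Of the 3 count columns, column 3 was taken as the annotated strand from its totals, and 4 summary lines were left out of library sizes. GENCODE M21 (GRCm38) gave names, introns and coordinates for 1894 of 1973 identifiers, and RefSeq gave sequences. CPM, shares, ranks, means and SDs were computed with Python 3.11.15, pandas 2.3.3 and scipy 1.17.1. Hairpins were folded with RNAfold 2.7.2. Scaling alternatives were edgeR 4.0.16 TMM and DESeq2 1.42.0 size factors (R 4.3.3), other totals, other minimum counts, other intron tolerances, counts without regard to strand, and each replicate left out. No gene-wise test was run, because there is 1 group. The replicates differed beyond sampling noise (chi-square of 63.8 per degree of freedom over 357 detected genes) and were kept as 2 samples. Ratio intervals were tested only on simulated counts that held sampling noise alone. That test therefore does not cover the wider spread between these pools. Members, lists and the rule for named genes were chosen with earlier results of these data known. That rule takes the members, their neighbours in level, a noncanonical list, detected intron-spanning precursors and genes sharing a seed. Genes named for the wider intron tolerance were picked after their values were seen.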

Additional observations from a re-analysis of the deposited data

How the results depend on the processing

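No paired analysis was possible because the study has 1 group, and ratios between genes were taken within each library. Of 73 values recomputed under the alternatives, 0 changed direction, which only the class ratio and the members' replicate ratios could do. Levels, shares and numbers detected have no sign to change. The class ratio was judged by direction alone, although its size moved most, to log2 2.94 without Mir484, 4.91 without Mir320 and 6.84 without Mir877, against 5.24. Of the other values, 14 moved beyond the spread between replicates, the counting interval or 1.5 times the count, all under another total, strand column or minimum. The share of counts in the 5 members was 0.263% with counts without regard to strand, 0.295% with Mir143, the most abundant gene, left out of the total, and 0.155% with all mapped reads as the total, which also put Mir484 at 1202 CPM, Mir320 at 308 CPM, Mir877 at 26.8 CPM, Mir702 at 12.8 CPM and Mir1224 at 0.487 CPM. With a minimum of 1 count, 16 of the 29 intron-spanning precursors and 5 members were detected. With 100 counts, 4 and 4 were. The class ratio was 5.15 to 5.33 in the single libraries, where 4 members and 6 to 7 intron-spanning precursors were detected and the members' share was 0.270% to 0.273%. The sign of every member's replicate ratio was kept under TMM, DESeq2 size factors and counts without regard to strand (15 of 15 values). Mir1224 and most intron-spanning precursors had under 10 counts in 1 or both libraries, and whether greater depth would detect them was not tested.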

Other observations

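How strictly a precursor must match an intron decides which microRNA leads the intron-spanning list. At a tolerance of 5 nt, 23 precursors matched, 4 of them detected, with 0.0230% ± 0.000814 of the counts, and Mir702, whose annotated hairpin starts 9 nt in the exon, and Mir3062 were no longer included. At 20 nt, 48 matched and 7 were detected, and the share was 6.16% ± 0.140 (SD, n = 2). Of the 19 that entered, the detected one was Mirlet7i, at 323213 and 404601 counts. Its ends lie within 20 nt of a 116 nt annotated intron of D630033A02Rik, which its 85 nt hairpin does not fill. Mir5132, in an intron of Irak1, and Mir3572, in an intron of Cnot3, also entered, each short of 10 counts in replicate 1, with 8 and 13 counts and with 9 and 11 counts.

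Of the 14 mature products in the RefSeq table that begin with GUGAG, 10 came from the 29 precursors that span an intron, which hold 50 of the 1738 products. The list was built from intron ends, so a shared start is partly fixed by its definition. Of the hairpins with a sequence, 15 of 23 in the list begin with GU and end with AG, against 30 of 1005 in all.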
